A study of Mus musculus with 8 samples.

Results

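Genes that mark mast cells were followed across 8 RNA sequencing libraries of BaF3 cells in which the RNA-binding protein Ybx1 was depleted. The 9 genes were Cpa3, Hpgds, Gata2, Kit, Fcer1a, Ms4a2, Hdc, Mitf and Cma1. They were taken by name as known mast cell genes, with earlier results of these data known, and looked up by symbol in the gene count table. Of the 9, 7 were among the 13588 genes of that table, and Kit and Ms4a2 were found by gene identifier in the gene TPM table of 53465 genes. A total of 6 entered the test among 13552 genes, since Fcer1a had too few counts to pass the filter on low counts. BaF3 is a mouse cell line labelled as derived from pro-B cells, and in each library it carried Jak2 with the activating V617F change. The groups were sh1Ybx1 (2 libraries) and sh2Ybx1 (2 libraries), each expressing 1 of 2 short hairpins against Ybx1, and shNT (4 libraries), expressing a non-targeting hairpin. All were grown in RPMI1640 with serum and sodium pyruvate. The labels name no clone, and whether the replicates came from different cultures is not stated, so each p-value here rests on a spread among libraries that may be technical only.

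Mast cells arise from myeloid progenitors under the transcription factors GATA2 and MITF and depend on KIT, the receptor for stem cell factor. Their granules hold proteases, among them carboxypeptidase A3 and chymase, together with histamine made by histidine decarboxylase. Cross-linking of IgE on the high-affinity receptor FceRI, built of an alpha chain (Fcer1a), a beta chain (Ms4a2) and gamma chains (Fcer1g), releases the granules and starts synthesis of prostaglandin D2 by the hematopoietic synthase encoded by Hpgds.

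Total counts per library were between 22779437 and 37549926. Ybx1 itself stood at 129.6 and 143.0 CPM (counts scaled to a library's TMM-adjusted total) in sh1Ybx1, 177.9 and 217.2 CPM in sh2Ybx1, and 1607 to 1731 CPM in shNT. It fell by 3.62 on the log2 scale with sh1Ybx1 (adjusted p = 0.000153, edgeR) and by 3.08 with sh2Ybx1 (adjusted p = 0.000261). The biological coefficient of variation was 0.0760 in sh1Ybx1, 0.0615 in sh2Ybx1 and 0.323 in shNT, and 0.205 in shNT without replicate 4. Of 17 B lymphoid markers, 11 were listed at 0 TPM (a measure of transcript abundance that allows for length) in each library, Ebf1, Rag1 and Rag2 among them, whereas Cd79a and Cd79b were detected in each group. The summed TPM of this list was 72.8 to 89.2 in sh1Ybx1, 61.3 to 86.8 in sh2Ybx1 and 69.3 to 88.4 in shNT. Messenger RNAs of the mitochondrial genome, whose level can vary with RNA handling, summed to 40900 to 72950 TPM in sh1Ybx1, 47620 to 49930 TPM in sh2Ybx1 and 18420 to 43480 TPM in shNT, and their part in the results below was not tested. In such bulk libraries, fewer cells of a kind and less RNA per cell cannot be told apart.

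By TPM, Gata2 was far above the other mast cell genes in each group, at a mean of 273 ± 32.7 TPM in sh1Ybx1, 202 ± 3.65 TPM in sh2Ybx1 and 479 ± 55.5 TPM in shNT (SD, n = 2, 2 and 4). Cpa3 came second in sh1Ybx1 and sh2Ybx1, at 23.8 ± 14.9 and 9.34 ± 0.728 TPM, and averaged 3.82 ± 3.61 TPM in shNT. Mitf was at 7.76 ± 2.54 TPM in sh1Ybx1, 4.94 ± 1.17 TPM in sh2Ybx1 and 10.1 ± 3.56 TPM in shNT, where it ranked above Cpa3. The libraries of Cpa3 and Mitf did not overlap in either hairpin group but overlapped in shNT. Hdc, Hpgds, Cma1 and Fcer1a averaged under 1 TPM with either hairpin, and their order there rests on values that include listed zeros. Kit was listed at 0 TPM throughout. With sh1Ybx1, 3 of the 6 tested genes passed an adjusted p of 0.05, 2 of them higher and 1 lower, where 19.2% of all tested genes did so (11.2% higher and 7.96% lower). With sh2Ybx1 the count was also 3, again 2 higher and 1 lower, against 19.9% of all tested genes (10.4% higher and 9.45% lower). For the mean of both hairpins 4 passed, 3 higher and 1 lower, against 28.9% (14.8% higher and 14.2% lower), and between sh1Ybx1 and sh2Ybx1 none of the 6 passed, against 0.524% (0.465% higher and 0.059% lower). Hpgds and Cma1 reached the filter's minimum of 0.381 CPM in knockdown libraries and in 0 of the 4 shNT libraries, so they could be tested only because they were higher there. These 2 are the genes called higher with sh2Ybx1, and Hpgds is 1 of the 2 with sh1Ybx1, so the counts describe the genes that passed the filter and not all 9. The genes, like the lists below, were chosen with earlier results of these data known. Their counts are therefore no test against the shares over all genes. The comparisons with sh1Ybx1 and sh2Ybx1 share the shNT libraries. The first principal component over all tested genes, with 50.9% of the variance, also parted the knockdown from the shNT libraries. The share of all genes whose knockdown and shNT libraries do not overlap is not given here. Where such separation is stated below, it describes the named gene only. On log2(TPM + 1), limma tested 4 of the 9 genes and called 0 of them with either hairpin, where it called 0.919% of 14042 genes with sh1Ybx1 and 0.47% with sh2Ybx1. On that scale the log2 fold changes of Cpa3 were 2.63 and 1.52 (adjusted p = 0.206 and 0.417), and those of Gata2 were -0.81 and -1.23 (adjusted p = 0.183 and 0.0888), in the same order of hairpins.

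**Figure D1:**
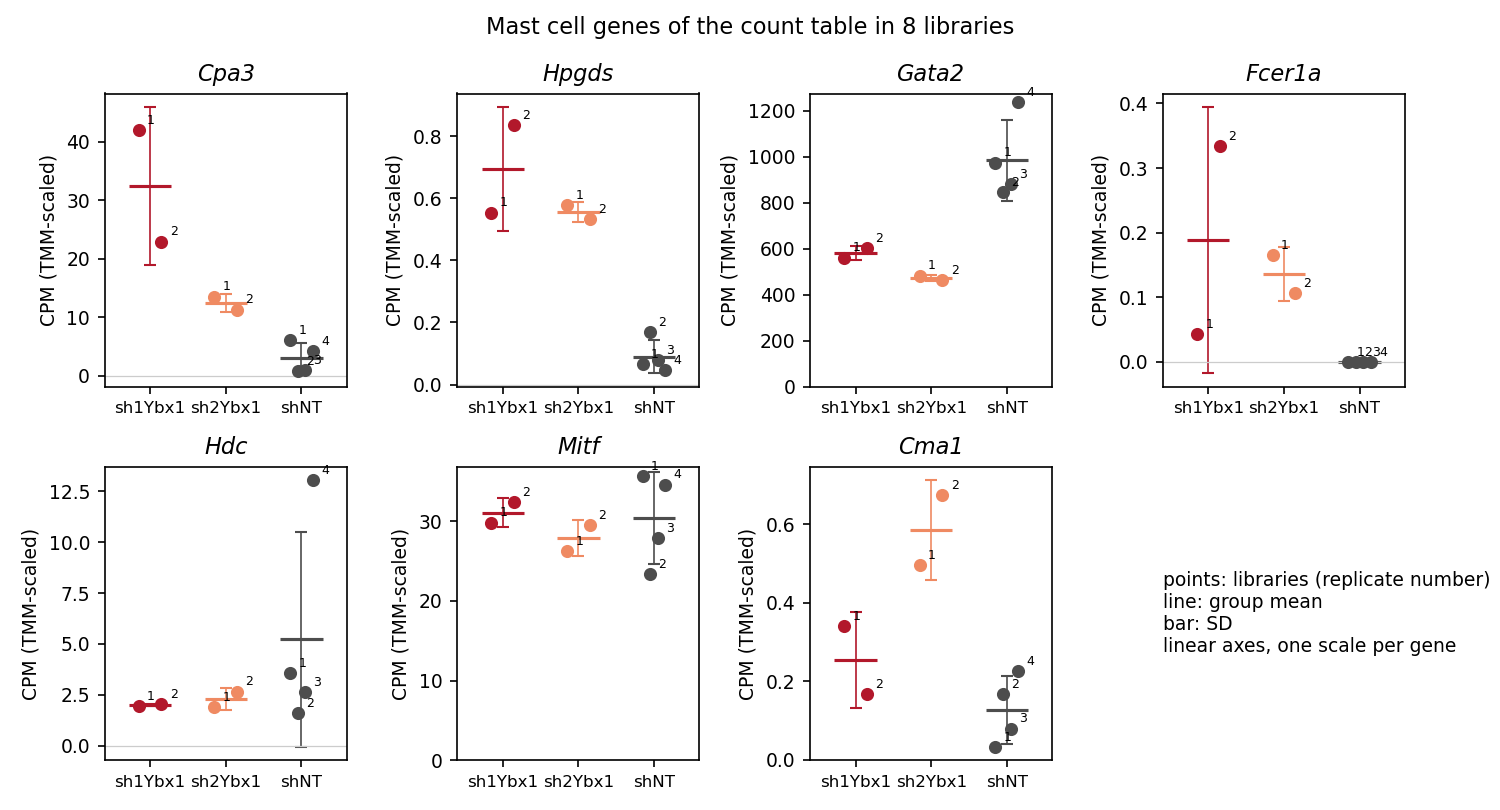
CPM after TMM scaling for the 7 mast cell genes with counts, by library, in sh1Ybx1, sh2Ybx1 and shNT, on linear axes with 1 scale per gene. Points are libraries labelled by replicate number, lines are group means and bars are SD. For Cpa3, Hpgds and Fcer1a the knockdown libraries are all above the 4 shNT libraries, for Gata2 all below them, and shNT replicate 4 is the highest library for Hdc at 13.0 CPM. The share of all genes that separate in this way is not given here.

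The 3 genes below are shown by the 250 bases before the start of their RefSeq transcript, because Cpa3, Fcer1a and Cma1 are the receptor chain and granule proteases that had more counts in at least 1 knockdown group. Sequences are from RefSeq (GRCm38.p6), in the gene's own 5′ to 3′ direction, with all 3 genes on the minus strand. The RefSeq start is also the start of the gene in GENCODE M21 for Cpa3 and Cma1, whereas for Fcer1a it lies 15 bases upstream of the M21 start. Capitals mark GATA words (the word AGATAA, the word AGATAG, the word TGATAA and the word TGATAG, on either strand), the core bound by GATA factors, and MITF words (the word CATGTG and the word CACGTG, on either strand), the E-box core bound by MITF.

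Cpa3, chr3:20242182-20242431: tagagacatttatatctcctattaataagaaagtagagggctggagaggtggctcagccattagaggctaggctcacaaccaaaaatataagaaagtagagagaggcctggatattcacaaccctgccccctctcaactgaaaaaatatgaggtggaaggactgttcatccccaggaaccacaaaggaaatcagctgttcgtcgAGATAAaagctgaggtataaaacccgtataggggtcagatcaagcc

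Cma1, chr14:55944676-55944925: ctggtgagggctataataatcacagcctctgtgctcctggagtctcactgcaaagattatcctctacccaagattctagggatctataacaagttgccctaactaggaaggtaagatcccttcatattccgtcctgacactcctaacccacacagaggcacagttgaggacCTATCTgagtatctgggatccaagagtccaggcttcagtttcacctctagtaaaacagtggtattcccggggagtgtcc

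Fcer1a, chr1:173227230-173227479: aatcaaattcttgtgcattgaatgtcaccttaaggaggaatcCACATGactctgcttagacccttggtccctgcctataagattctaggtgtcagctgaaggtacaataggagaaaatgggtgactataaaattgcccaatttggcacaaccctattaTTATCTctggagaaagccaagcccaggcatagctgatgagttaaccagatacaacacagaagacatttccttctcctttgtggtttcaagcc

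Counting the 5′ base of each word back from the RefSeq start, the Cpa3 window held a GATA word at -46, the Cma1 window 1 at -79, and the Fcer1a window 1 at -92 with an MITF word at -208. All 9 genes matched the promoter table, in 13 windows, of which 7 held a GATA word and 2 an MITF word. Mitf, Gata2 and Kit have more than 1 window each. By gene, 6 of the 9 held a GATA word in at least 1 window and 2 an MITF word. No window of Hpgds, Gata2 or Kit held a GATA word. Of 32851 mouse promoter windows of this length, 26.5% held a GATA word and 17.6% an MITF word. The other MITF word was in the Hpgds window. These are matches of letters in a window and show no binding.

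Cpa3 (ENSMUSG00000001865, chromosome 3, 20215620 to 20242181, minus strand, GRCm38) encodes carboxypeptidase A3, a protease stored in mast cell granules. Its counts were 987 and 549 in sh1Ybx1, 328 and 319 in sh2Ybx1, and 181, 29, 34 and 93 in shNT. Scaled to library size these were 42.0 and 22.9 CPM in sh1Ybx1, 13.5 and 11.3 CPM in sh2Ybx1, and 6.04, 0.810, 0.901 and 4.21 CPM in shNT. Each knockdown library was above each shNT library, and the 3 groups did not overlap, although the highest and lowest shNT libraries were far apart. Cpa3 rose with sh1Ybx1 by 3.46 on the log2 scale (SE 0.719, edgeR quasi-likelihood test, Benjamini-Hochberg adjusted p = 0.0151). With sh2Ybx1 the log2 fold change was 2.07 (SE 0.717), which did not pass (adjusted p = 0.0740). For both hairpins it was 2.77 (SE 0.643, adjusted p = 0.0155). The gap between the hairpins, 1.39 on the log2 scale (SE 0.849), did not pass (adjusted p = 0.545). It passed only when the hairpin groups were fitted alone (edgeR adjusted p = 7.24e-08). That fit uses only the small spread of those groups (biological coefficient of variation 0.0760 and 0.0615), and it called far more genes than the main fit. With 1 library left out the gap was 0.88 to 1.76. The sh1Ybx1 call was lost without sh1Ybx1 replicate 1 (2.95, adjusted p = 0.152) or replicate 2 (3.83, adjusted p = 0.0651), each leaving 1 library that was assumed to vary like the others. The call for both hairpins was lost without sh1Ybx1 replicate 1 (2.51, adjusted p = 0.0658) or sh2Ybx1 replicate 1 (2.70, adjusted p = 0.0566). Without shNT replicate 4 the sh2Ybx1 value was 2.27 and passed (adjusted p = 0.0290), as it did in DESeq2 (2.04, adjusted p = 0.0204). Over 17 alternatives its adjusted p with sh2Ybx1 passed in 3. The authors' deposited table gives Cpa3 a log2 fold change of 3.30 over both hairpins (adjusted p = 0.00848).

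Cma1 (ENSMUSG00000022225, chromosome 14, 55941451 to 55944675, minus strand) encodes mast cell chymase 1, and it had few counts in all libraries. There were 8 and 4 counts in sh1Ybx1, 12 and 19 in sh2Ybx1, and 1, 6, 3 and 5 in shNT. The sh2Ybx1 libraries, at 0.495 and 0.674 CPM, were above all 4 shNT libraries (0.0334 to 0.226 CPM), whereas 1 of the sh1Ybx1 libraries, at 0.341 and 0.167 CPM, lay inside the shNT range. Cma1 rose with sh2Ybx1 by 2.23 on the log2 scale (SE 0.571, edgeR adjusted p = 0.0312). It reached the filter's minimum of 0.381 CPM only in the 2 sh2Ybx1 libraries, so it could be tested only because that group was high. With sh1Ybx1 the log2 fold change was 1.04 (SE 0.661) and did not pass (adjusted p = 0.300). The difference between the hairpins was -1.20 (edgeR adjusted p = 0.484), so the 2 are not shown to differ. That fit shares 1 estimate of spread among the groups, and shNT varied most (biological coefficient of variation 0.323). Over the count fits with other settings and all replicates, the lowest adjusted p for this difference was 0.0508. The mean over both hairpins, 1.63 (SE 0.524), was just past the threshold (adjusted p = 0.0477). The sh2Ybx1 call was lost in 6 of the 8 fits that left out 1 library: without sh2Ybx1 replicate 1 (2.43, adjusted p = 0.182) or 2 (1.94, adjusted p = 0.211), without either sh1Ybx1 library (2.23, adjusted p = 0.0561), and without shNT replicate 1 (1.89, adjusted p = 0.0551) or 3 (2.02, adjusted p = 0.0618). It was also lost when shNT and sh2Ybx1 were fitted alone (adjusted p = 0.0553). Chymase sits in a cluster of closely related protease genes, and it is not given in the sources read here how reads matching several copies were counted.

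The rest of the granule protease list was near silent. Of its 14 genes, 10 were listed at 0 TPM in all 8 libraries, including the tryptases Tpsb2 and Tpsab1, the chymases Mcpt1, Mcpt2 and Mcpt4, and the basophil proteases Mcpt8 and Prss34. The list's summed level was 13.9 to 34.3 TPM in sh1Ybx1, 10.9 to 11.1 TPM in sh2Ybx1 and 0 to 8.44 TPM in shNT. Cpa3 supplied most of that sum in the knockdown libraries. Besides Cpa3 and Cma1 only Ctsg, the gene of cathepsin G, was tested, and its log2 fold change was -0.85 with sh1Ybx1 (SE 1.15, edgeR adjusted p = 0.637) and 0.58 with sh2Ybx1 (SE 0.943, adjusted p = 0.689).

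Fcer1a (ENSMUSG00000005339, chromosome 1, 173221284 to 173227214, minus strand) encodes the IgE-binding alpha chain of FceRI. It had 1 and 8 counts in sh1Ybx1, 4 and 3 counts in sh2Ybx1, and 0 in all 4 shNT libraries. Reads were thus present in each knockdown library and in no shNT library, at 0.0426 and 0.334 CPM in sh1Ybx1 and 0.165 and 0.107 CPM in sh2Ybx1. Over the group, the sh1Ybx1 sum of 9 counts has an exact Poisson 95% interval of 4.12 to 17.1, the sh2Ybx1 sum of 7 counts 2.81 to 14.4, and the shNT sum of 0 an upper bound of 3.69, for counting error only. In CPM these intervals are 0.0868 to 0.360 in sh1Ybx1, 0.0537 to 0.275 in sh2Ybx1 and 0 to 0.0294 in shNT. Of the 9 sh1Ybx1 counts, 8 came from replicate 2, so the sh1Ybx1 level rests mostly on 1 library. The filter on low counts left it out of the main test. Without that filter edgeR gave an adjusted p of 0.0534 with sh1Ybx1, 0.0725 with sh2Ybx1 and 0.0360 for both hairpins, and DESeq2 gave 0.0383, 0.0648 and 0.0163 for the same 3 comparisons. In the authors' deposited table its log2 fold change is 3.22 (adjusted p = 0.00586). A gene with no read in shNT has counts to compare only where the knockdown libraries supply them, so no other direction was possible.

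Kit and the beta chain of FceRI were listed at or near 0 TPM, whereas the gamma chain was abundant. Kit (ENSMUSG00000005672, chromosome 5, 75574916 to 75656722, plus strand), the receptor for stem cell factor, was listed at 0 TPM in all 8 libraries and for each of its 8 annotated transcripts. Ms4a2 (ENSMUSG00000024680, chromosome 19, 11615523 to 11623719, minus strand), the signal-amplifying beta chain of FceRI, was listed at 0.43 TPM in sh2Ybx1 replicate 1 and at 0 in the other 7 libraries. Neither is in the count table, so no count stands behind these values, and a listed 0 does not show that no read was present. The gamma chain Fcer1g, named here after its values were seen, was abundant in all libraries, at 240 and 209.6 CPM in sh1Ybx1, 132 and 118 CPM in sh2Ybx1, and 90.4 to 146.5 CPM in shNT. It rose by 1.00 on the log2 scale with sh1Ybx1 (SE 0.197, edgeR adjusted p = 0.0127), and was 0.16 with sh2Ybx1 (SE 0.202, adjusted p = 0.609). The difference between the hairpins, 0.85, did not pass (adjusted p = 0.145). Fcer1g also serves Fc receptors of macrophages and other myeloid cells.

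Among 31 receptors of mast cells and basophils, 8 were listed at 0 TPM throughout, and 19 were tested, none of them among the 9 genes. With sh1Ybx1, 8 of the 19 rose and 1 fell, where 11.2% of all tested genes rose and 7.96% fell. With sh2Ybx1, 1 rose and 2 fell, near the 10.4% and 9.45% of all tested genes. Their median log2 fold change was 1.21 with sh1Ybx1 and 0.32 with sh2Ybx1, beside 0.00 and -0.01 for all tested genes. Cd200r3, an activating receptor-like protein of mast cells and basophils, was at 15.2 and 11.7 CPM in sh1Ybx1, 4.95 and 8.55 CPM in sh2Ybx1, and 0.0838 to 1.20 CPM in shNT. It rose with both, by 4.89 (SE 0.735, edgeR adjusted p = 0.00532) with sh1Ybx1 and 3.90 (SE 0.730, adjusted p = 0.0134) with sh2Ybx1. Too few of its shNT libraries reached the filter's minimum of 0.381 CPM, so Cd200r3 could be tested only because it was higher in knockdown. The counts of risers in this list include such genes. The inhibitory Fc receptor gene Fcgr2b rose with sh1Ybx1 by 2.29 (adjusted p = 0.00669) and Cd200r1 by 1.23 (adjusted p = 0.0106), whereas their values with sh2Ybx1 were 0.48 (adjusted p = 0.393) and 0.09 (adjusted p = 0.823). Il4ra, the interleukin-4 receptor alpha chain, fell with both hairpins, by 0.54 (adjusted p = 0.0444) with sh1Ybx1 and 0.56 (adjusted p = 0.0404) with sh2Ybx1. Many of these receptors are shared with macrophages and neutrophils. Of 18 markers of those cells, 13 were tested, and 6 rose and 2 fell with sh1Ybx1, whereas 1 rose and none fell with sh2Ybx1, where 19.2% and 19.9% of all tested genes passed in either direction. Their median log2 fold change was 1.74 with sh1Ybx1 and 0.63 with sh2Ybx1. Itgam rose by 6.03 with sh1Ybx1 (edgeR adjusted p = 0.000929) and by 2.64 with sh2Ybx1 (adjusted p = 0.022). All its shNT libraries were below the filter's minimum of 0.381 CPM, so it too could be tested only because it was higher in knockdown. Cebpe and Tyrobp rose by 2.21 (adjusted p = 0.00107) and 4.15 (adjusted p = 0.00202) with sh1Ybx1. With sh2Ybx1 they were at 0.63 (adjusted p = 0.0655) and 1.48 (adjusted p = 0.0548). The 2 that fell with sh1Ybx1, named here after their values were seen, were Fcgr1 and Prtn3. Fcgr1 was at -2.57 with sh1Ybx1 (edgeR adjusted p = 0.0134) and -0.139 with sh2Ybx1 (adjusted p = 0.838). Prtn3 was at -2.1 with sh1Ybx1 (edgeR adjusted p = 0.0171) and -0.932 with sh2Ybx1 (adjusted p = 0.145). The summed level of the 18 markers was 275.9 to 302.2 TPM in sh1Ybx1, 95.2 TPM in both sh2Ybx1 libraries and 53.7 to 114.0 TPM in shNT. Lyz1, Elane, Cd14 and Mrc1 were listed at 0 TPM in all libraries. The part of these changes in the receptor counts was not tested. Of 10 basophil markers, 4 were tested, of which 2 rose with sh1Ybx1 and 1 with sh2Ybx1, and 3 were listed at 0 TPM throughout. Over all tested genes, 11.2% rose with sh1Ybx1 and 10.4% with sh2Ybx1. Cd200r3, already counted among the receptors, is 1 of the 2 with sh1Ybx1 and the 1 with sh2Ybx1.

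Hpgds (ENSMUSG00000029919, chromosome 6, 65117293 to 65144908, minus strand) encodes the synthase that makes prostaglandin D2 in mast cells. It had 13 and 20 counts in sh1Ybx1, 14 and 15 in sh2Ybx1, and 2, 6, 3 and 1 in shNT. In CPM these were 0.553 and 0.836 in sh1Ybx1, 0.577 and 0.532 in sh2Ybx1, and 0.0667, 0.168, 0.0795 and 0.0453 in shNT. All 4 knockdown libraries were above all 4 shNT libraries, and the hairpin groups were close to each other. Hpgds rose by 2.83 on the log2 scale with sh1Ybx1 (SE 0.466, edgeR adjusted p = 0.00717) and by 2.50 with sh2Ybx1 (SE 0.474, adjusted p = 0.0138). The difference between the hairpins, 0.32, did not pass (adjusted p = 0.828). Over both hairpins the rise was 2.66 (SE 0.410, adjusted p = 0.00420), and it passed in each of the 8 fits that left out 1 library. The sh1Ybx1 call was lost without its replicate 1 (3.10, adjusted p = 0.0572) or 2 (2.50, adjusted p = 0.0783), and the sh2Ybx1 call without its replicate 1 (2.45, adjusted p = 0.153) or 2 (2.52, adjusted p = 0.109). These folds rest on group sums of 33, 29 and 12 counts in sh1Ybx1, sh2Ybx1 and shNT. The coding transcript Hpgds-201 was at 0 and 0.21 TPM in sh1Ybx1, 0.29 TPM in both sh2Ybx1 libraries, and 0, 0.21, 0 and 0 TPM in shNT. Hpgds-203, annotated as a retained intron transcript, was at 0.6 and 0.19 TPM in sh1Ybx1 and listed at 0 in the other libraries. These are estimates from few reads, so a rise of the coding transcript with sh1Ybx1 is not shown. Hpgds reached the filter's minimum of 0.381 CPM in 0 of the 4 shNT libraries, so it could be tested only because it was higher in knockdown.

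Of the other prostaglandin and leukotriene enzymes, 8 were tested. With sh1Ybx1, 1 rose and 2 fell, and with sh2Ybx1, 1 rose and 1 fell. Of all tested genes, 11.2% rose and 7.96% fell with sh1Ybx1, and 10.4% rose and 9.45% fell with sh2Ybx1. The 8 genes are too few to tell a departure from those shares. Ptgs1, the cyclooxygenase that makes the substrate of Hpgds, stood at 128 and 121 CPM in sh1Ybx1, 234 and 216 CPM in sh2Ybx1 and 269 to 486 CPM in shNT. It fell by 1.65 with sh1Ybx1 (SE 0.248, edgeR adjusted p = 0.00534) and by 0.80 with sh2Ybx1 (SE 0.237, adjusted p = 0.0485), with no overlap between knockdown and shNT libraries. Pla2g4a, the phospholipase that releases arachidonic acid, fell by 1.30 with sh1Ybx1 (adjusted p = 0.00709) and was at -0.45 with sh2Ybx1 (adjusted p = 0.149). The prostaglandin E synthase gene Ptges rose by 2.41 with sh1Ybx1 (adjusted p = 0.0126), with a value of 0.20 (adjusted p = 0.821) with sh2Ybx1. The thromboxane synthase gene Tbxas1 rose by 0.93 with sh2Ybx1 (adjusted p = 0.0376) and was at 0.80 with sh1Ybx1 (adjusted p = 0.0610).

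Hdc (ENSMUSG00000027360, chromosome 2, 126593667 to 126619299, minus strand) encodes histidine decarboxylase, which makes histamine. It was at 1.96 and 2.05 CPM in sh1Ybx1, 1.90 and 2.66 CPM in sh2Ybx1, and 3.57, 1.62, 2.65 and 13.0 CPM in shNT. The groups overlapped, and shNT replicate 4 alone was far above the rest. Its log2 fold change was -1.36 with sh1Ybx1 (SE 0.798, edgeR adjusted p = 0.259) and -1.18 with sh2Ybx1 (SE 0.785, adjusted p = 0.309), neither past the threshold. Without shNT replicate 4 the values were -0.41 and -0.22 (adjusted p = 0.366 and 0.618). Slc18a2, the transporter that loads histamine into granules, named here after its values were seen, was also highest in that library, at 1862 CPM, against 464.5 to 897.3 CPM in the other shNT libraries. It was at 996.5 and 831.7 CPM in sh1Ybx1 and 894.9 and 781.6 CPM in sh2Ybx1, and did not pass with either hairpin (adjusted p = 0.933 and 0.803).

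The granule core and amine storage list had 18 tested genes besides Hdc. With sh1Ybx1, 3 rose and 1 fell, and with sh2Ybx1, 3 rose and none fell, close to the 19.2% and 19.9% of all tested genes that passed. The medians were 0.18 with sh1Ybx1 and -0.09 with sh2Ybx1. Srgn, the serglycin core protein on which granule proteases and amines are packed, stood at 520 and 466 CPM in sh1Ybx1, 428 and 463 CPM in sh2Ybx1 and 158 to 300 CPM in shNT. It rose by 1.06 (SE 0.254, edgeR adjusted p = 0.0243) with sh1Ybx1 and 0.92 (SE 0.255, adjusted p = 0.0400) with sh2Ybx1. Snap23, a membrane fusion protein used in degranulation, rose by 0.86 (adjusted p = 0.0172) and 0.67 (adjusted p = 0.0400) in the same 2 comparisons. Cd63, a granule membrane tetraspanin, rose by 1.20 with sh1Ybx1 (adjusted p = 0.00303) and was at 0.31 with sh2Ybx1 (adjusted p = 0.193). Vamp8, another fusion protein of granules, rose by 0.70 with sh2Ybx1 (adjusted p = 0.0149) and was at 0.40 with sh1Ybx1 (adjusted p = 0.0737).

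Gata2 (ENSMUSG00000015053, chromosome 6, 88193891 to 88207032, plus strand) encodes a zinc finger factor of progenitors and of the mast cell lineage, and was the 1 tested mast cell gene that fell with each hairpin. It was at 561.3 and 603.5 CPM in sh1Ybx1, 483 and 464.3 CPM in sh2Ybx1, and 975.3, 846.1, 882.2 and 1237 CPM in shNT. All knockdown libraries were below all shNT libraries, and sh2Ybx1 was below sh1Ybx1. Gata2 fell by 0.76 on the log2 scale with sh1Ybx1 (SE 0.195, edgeR adjusted p = 0.0306) and by 1.06 with sh2Ybx1 (SE 0.198, adjusted p = 0.0134). The difference between the hairpins was 0.30 and did not pass (adjusted p = 0.626). It passed only when the hairpin groups were fitted alone (edgeR adjusted p = 0.0277), a fit that called far more genes than the main fit. With 1 library left out the difference was 0.25 to 0.35. For both hairpins it fell by 0.91 (SE 0.155, adjusted p = 0.00594), and this passed in each of the 8 fits that left out 1 library. The sh1Ybx1 call was lost without sh1Ybx1 replicate 1 (-0.71, adjusted p = 0.255) or 2 (-0.81, adjusted p = 0.158), sh2Ybx1 replicate 1 (-0.76, adjusted p = 0.0691) or 2 (-0.79, adjusted p = 0.0651), or shNT replicate 1 (-0.80, adjusted p = 0.0560), and when sh1Ybx1 and shNT were fitted alone (adjusted p = 0.0652). The sh2Ybx1 call was lost without its replicate 1 (-1.08, adjusted p = 0.167) or 2 (-1.07, adjusted p = 0.123). In TPM the order of the libraries was the same in kind, at 249.5 and 295.7 TPM in sh1Ybx1, 199.7 and 204.9 TPM in sh2Ybx1, and 426.2 to 557.0 TPM in shNT.

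Gata2 was also the mast cell gene with splicing events past an unadjusted p of 0.05 in the authors' deposited table. The table lists 12 events in Gata2 and 1 in Mitf, and gives for each a delta PSI, the change in the share of transcripts that include the segment on a scale of -1 to 1, which runs as knockdown minus control. That direction was read from the data, from 85 pairs of a listed exon bin and a retained intron with an unadjusted p under 0.05 that contains it, of which 82 had the same sign in both. Among all 26983 events of the authors' deposited table, 7.15% had an unadjusted p under 0.05. Of its 4479 retained introns, 23.6% had an unadjusted p under 0.05, and 93.5% of those were positive. In Gata2 all 3 listed retained introns were positive and under 0.05. By the authors' deposited table, the event at chromosome 6, 88201228 to 88202419 had a delta PSI of 0.302 (unadjusted p = 0.000179), the event at 88203885 to 88204583 one of 0.210 (unadjusted p = 0.0305), and the event at 88204708 to 88205175 one of 0.088 (unadjusted p = 0.00998). Each lies inside an annotated Gata2 intron of GENCODE M21 and shares 1 of its ends. The table pools both hairpins and carries no value per library, so the spread between libraries is not known. Of 8 complex events in the same table, 3 were under 0.05, with delta PSI of 0.021 to 0.041. In Mitf, the 1 listed event, an alternative 5′ splice site, had a delta PSI of 0.123 (unadjusted p = 0.0547) in the authors' deposited table. No event was listed for the other 7 genes, and none of the 581 exon bins in the authors' deposited table lies in a mast cell gene.

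**Figure D2:**
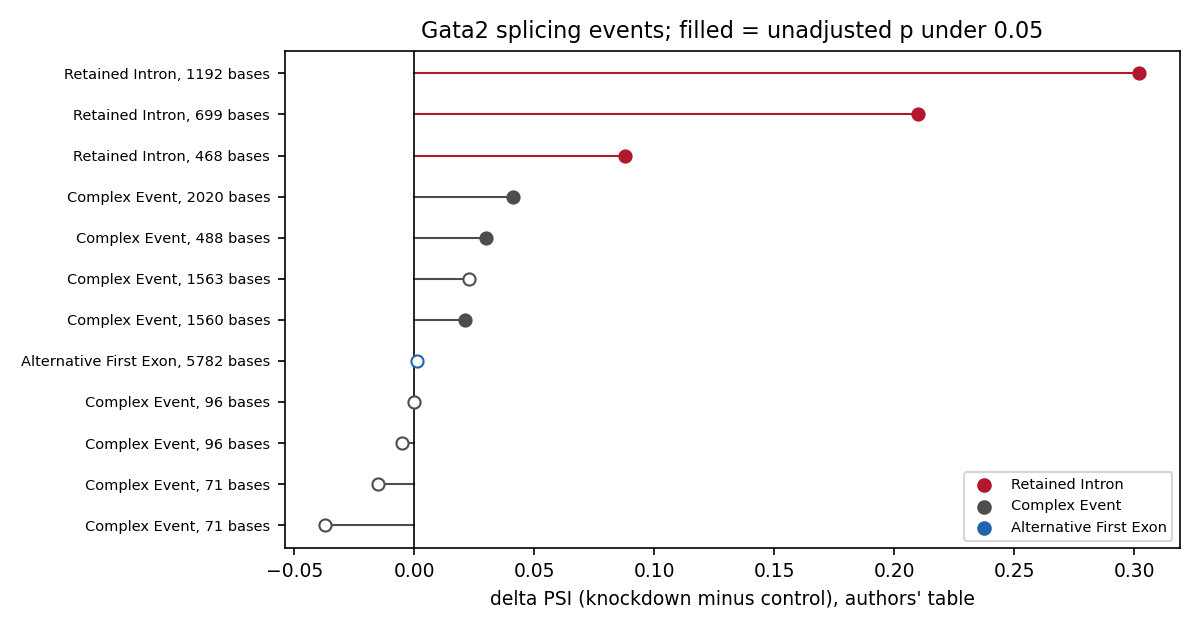
Delta PSI (knockdown minus control) of the 12 Gata2 events in the authors' deposited table, with the event class and length on the y axis. Filled points have an unadjusted p under 0.05. The 3 retained introns, at 0.302, 0.210 and 0.088, are above all other Gata2 events.

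At the transcript level, the Gata2 annotation holds 5 transcripts with a TPM. The coding transcripts Gata2-202 and Gata2-203 held most of the gene's TPM in each library. Gata2-205, annotated as a retained intron transcript, made up 2.64 and 0.940% of Gata2 TPM in sh1Ybx1, 1.94 and 4.81% in sh2Ybx1, and 0.861, 0.634, 0.282 and 0.451% in shNT. All 4 knockdown shares were above the 4 shNT shares, though sh1Ybx1 replicate 2 was only just so. These shares are taken of a gene total that was itself lower in knockdown. In TPM, Gata2-205 was at 6.59 and 2.78 in sh1Ybx1, 3.87 and 9.86 in sh2Ybx1, and 4.05, 2.70, 1.30 and 2.51 in shNT, where the groups overlapped. Gata2-204, the other retained intron transcript, took 4.08 and 2.96% in sh1Ybx1, 2.78 and 6.16% in sh2Ybx1, and 1.58 to 3.69% in shNT, where the groups overlapped. These values are estimates without counts, and their depth is unknown.

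Mitf (ENSMUSG00000035158, chromosome 6, 97807052 to 98021349, plus strand) encodes a basic helix-loop-helix factor needed for mast cell development in mice. It was at 29.8 and 32.4 CPM in sh1Ybx1, 26.3 and 29.5 CPM in sh2Ybx1, and 35.6, 23.4, 27.9 and 34.6 CPM in shNT. In CPM the knockdown libraries lay within the shNT range. In TPM, sh2Ybx1 replicate 1, at 4.11 TPM, was below the lowest shNT library, at 5.37 TPM. Its log2 fold change was 0.03 with sh1Ybx1 (SE 0.195, edgeR adjusted p = 0.918) and -0.12 with sh2Ybx1 (SE 0.196, adjusted p = 0.690), with a sign that turned with sh1Ybx1 under limma on TPM and in 3 of the fits that left out 1 library. The transcript Mitf-202 was detected at 4.11 to 7.46 TPM in all 8 libraries. Mitf-208 was listed at 0 TPM in all 4 knockdown libraries and in shNT replicate 2, and at 7.30, 3.91 and 4.02 TPM in shNT replicates 1, 3 and 4.

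Among the other transcription factors of the mast cell lineage, 22 were tested. With sh1Ybx1, 1 rose and 2 fell, and with sh2Ybx1 none rose and 3 fell. These 3 of 22 with each hairpin are no more than the 19.2% and 19.9% of all tested genes that passed. Lyl1, a helix-loop-helix factor of blood progenitors, fell by 1.04 (SE 0.247, edgeR adjusted p = 0.0243) with sh1Ybx1 and 1.05 (SE 0.248, adjusted p = 0.0243) with sh2Ybx1. Ikzf1, which encodes Ikaros, fell by 0.71 (adjusted p = 0.0156) and 0.76 (adjusted p = 0.0152) in the same comparisons. Spi1, which encodes the myeloid factor PU.1, rose by 1.00 with sh1Ybx1 (adjusted p = 0.0149) and was at -0.03 with sh2Ybx1 (adjusted p = 0.933). Stat6, which acts below the interleukin-4 receptor, fell by 0.67 with sh2Ybx1 (adjusted p = 0.0421) and was at 0.18 with sh1Ybx1 (adjusted p = 0.526). Gata1, partner of Gata2 in the lineage and named here after its values were seen, was at -0.49 with sh1Ybx1 (adjusted p = 0.258) and -0.21 with sh2Ybx1 (adjusted p = 0.618).

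The signalling genes below FceRI and KIT had 31 tested members, of which 5 rose and 3 fell with sh1Ybx1, and none rose and 9 fell with sh2Ybx1. Over all tested genes, 11.2% rose and 7.96% fell with sh1Ybx1, and 10.4% rose and 9.45% fell with sh2Ybx1. Their medians were -0.25 with sh1Ybx1 and -0.40 with sh2Ybx1. Lat, the adaptor on which the FceRI signal assembles, was at 5.24 and 6.39 CPM in sh1Ybx1, 12.8 and 14.8 CPM in sh2Ybx1, and 23.9 to 45.8 CPM in shNT. It fell by 2.52 with sh1Ybx1 (SE 0.311, edgeR adjusted p = 0.00276) and by 1.27 with sh2Ybx1 (adjusted p = 0.0216). Syk, the kinase that binds the receptor's gamma chains, rose by 1.29 with sh1Ybx1 (SE 0.132, adjusted p = 0.00167) and was at 0.22 with sh2Ybx1 (adjusted p = 0.274). For Syk the difference between the hairpins itself passed, at 1.07 (SE 0.160, adjusted p = 0.0426). Rasgrp4, an exchange factor of mast cells named here after its values were seen, rose by 1.16 with sh1Ybx1 (adjusted p = 0.0365) and fell by 1.42 with sh2Ybx1 (adjusted p = 0.0313), and the difference of 2.59 passed (adjusted p = 0.0435). Pik3r5, a phosphoinositide 3-kinase subunit, rose by 2.71 with sh1Ybx1 (adjusted p = 0.00532), with 1.31 in sh2Ybx1 (adjusted p = 0.0566). The phosphatase gene Ptpn11 fell by 0.75 with sh1Ybx1 (adjusted p = 0.0231) and by 1.12 with sh2Ybx1 (adjusted p = 0.00900). Stim1 and Lcp2, a calcium sensor and an adaptor, fell by 1.26 (adjusted p = 0.00914) and 0.85 (adjusted p = 0.0153) with sh2Ybx1, with values of -0.33 (adjusted p = 0.263) and -0.27 (adjusted p = 0.270) with sh1Ybx1.

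**Figure D3:**
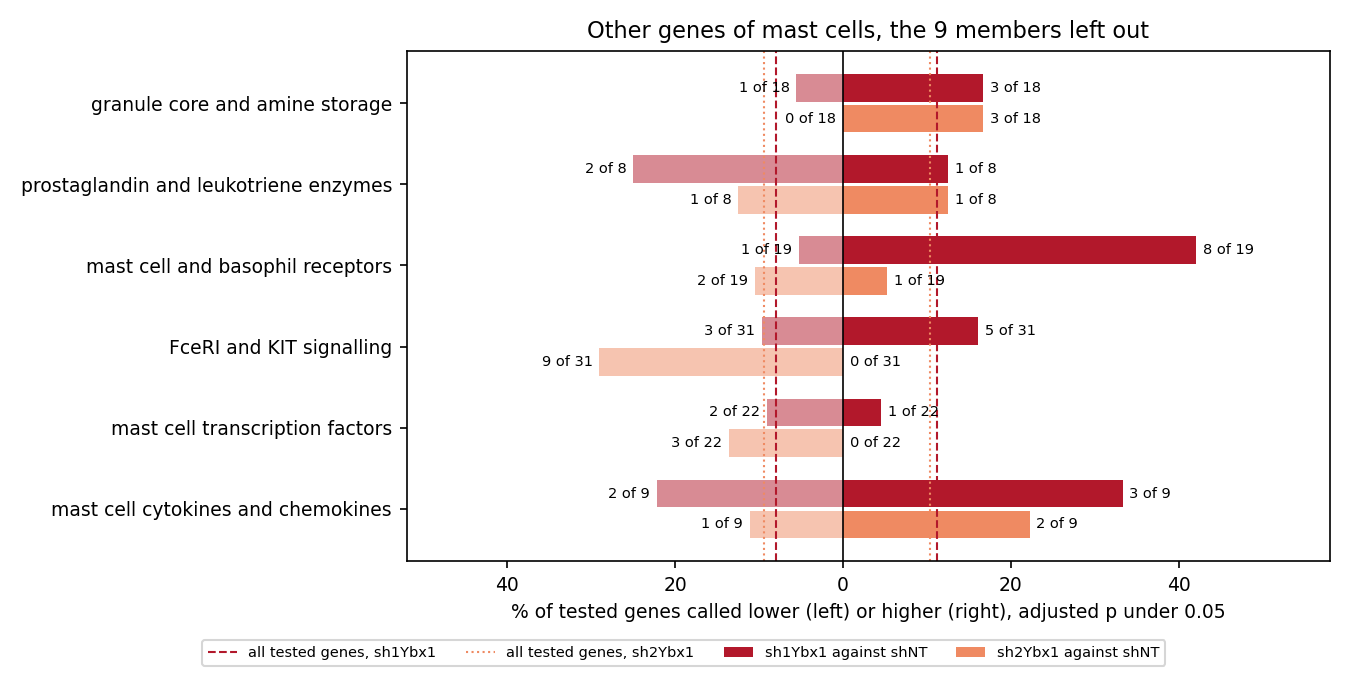
Percent of tested genes called higher (right) or lower (left) at an adjusted p under 0.05 in 6 lists of mast cell genes, the 9 genes left out, for sh1Ybx1 and sh2Ybx1 against shNT. Dashed and dotted lines give the percent over all 13552 tested genes (11.2% higher and 7.96% lower with sh1Ybx1, 10.4% higher and 9.45% lower with sh2Ybx1). The receptor list has 8 of 19 higher with sh1Ybx1 and 1 of 19 with sh2Ybx1.

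Across the 8 libraries the 7 counted genes did not move as 1 group. On log2(CPM + 1), Hpgds had a Pearson r of 0.795 with Cpa3 and 0.870 with Fcer1a, and -0.876 with Gata2. Cpa3 with Gata2 had an r of -0.647, and Mitf with Hpgds one of -0.119. The points share the knockdown and the 8 libraries, and 3 of the genes have few counts, so these values describe the libraries only. Among 11691 genes with a mean of 1 CPM or more, the patterns most like Cpa3 were those of Gm38102 (r = 0.993), Tepsin (r = 0.987) and Gm13270 (r = 0.986). Most like Gata2 were Tab2 (r = 0.995), Gm13394 (r = 0.994) and Gapdh (r = 0.993). Gapdh, a glycolytic enzyme, stood at 735.4 and 808.8 CPM in sh1Ybx1, 508.5 and 547.5 CPM in sh2Ybx1, and 1382 to 3095 CPM in shNT. For Hdc the closest were Ccdc183 (r = 0.989), Sdccag8 (r = 0.988) and Tspan18 (r = 0.986), and for Mitf they were Anxa5 (r = 0.943), Adamtsl5 (r = 0.935) and Dglucy (r = 0.932).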

How the data were processed

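Messenger RNA was sequenced from 8 libraries. Per the file headers, the authors deposited raw counts per gene with a log2 fold change and p-values of knockdown against control, TPM and FPKM values per gene, TPM per transcript, and splicing and exon tables with p-values. The submitters' processing notes name STAR, featureCounts, RSEM and limma without versions, and the builds GRCm38 and mm9. The program behind the splicing table and the strand setting are not given in the sources used here. Reads of overlapping genes on opposite strands may not be separated. Delta PSI values are the authors' deposited values. Some but not all splicing events of the mast cell genes shared an end with an intron of GENCODE M21 (GRCm38). Events of other genes were not compared with its introns.

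The counts were tested with edgeR 4.0.16 (R 4.3.3) by the quasi-likelihood test, after TMM scaling and filterByExpr, fitting 3 group means jointly to the 8 libraries. The hairpins were tested apart, together and against each other. Adjusted p-values (Benjamini-Hochberg) run over all 13552 genes, with a threshold of 0.05. Standard errors were taken as the log2 fold change divided by the root of the F value and are approximate for low counts. Alternatives were RLE scaling, DESeq2 1.42.0, no filter, only the compared groups, a replicate block, limma 3.58.1 on TPM or FPKM, and each library left out, 17 in all. Same-numbered libraries had deviations that correlated at -0.0118 to 0.197, so the numbers were not used as pairs.

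The genes and lists were chosen with earlier results of these data known. Named genes are Ybx1, the 9 genes, up to 3 called genes per list and hairpin by smallest p, and the 3 nearest patterns for each of the 9 with a mean of 1 CPM or more. Others are named as chosen after their values were seen. Intervals and floors cover counting error only. Of 52 counts above 0, 14 had a TPM listed at 0, up to a count of 46, so a TPM of 0 does not show that no read was present. The transcript FPKM table and the pathway list were not used here.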

Additional observations from a re-analysis of the deposited data

Results flagged for a closer look

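Hdc was at 13.0 CPM in shNT replicate 4, against 1.62, 2.65 and 3.57 CPM in the other 3 shNT libraries. Its gap to the nearest of the others, as a share of the group's range, was just past Dixon's critical value for 4 samples. Chance alone flags about 1 in 20 groups. The same library stood apart on the second principal component, which held 25.4% of the variance. The part of this library's other features in the Hdc value was not tested.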

How the results depend on the processing

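Counts of called genes depended on the fit far more than the direction of the mast cell genes did. Of 376 alternative values over the 6 tested genes, 304 kept their direction and side of the threshold, 56 lost the call, 5 gained it and 11 changed sign. No value that changed sign had passed. The 304 include values that had not passed and stayed so, so the 56 are a larger share of the values that could lose a call. Results that had passed kept the call in 3 of 13 alternatives (Cma1, both hairpins) to 12 of 13 (Hpgds, both hairpins). With only the compared groups in the fit, 1372 genes were called with sh1Ybx1, 1349 with sh2Ybx1 and 5620 between the hairpins, and 2 mast cell genes, Cpa3 and Gata2, then passed between the hairpins. DESeq2 called 794 genes between the hairpins. With the replicate block, 6143 genes were called with sh1Ybx1, 6087 with sh2Ybx1, 6653 for both and 3060 between the hairpins. The shared numbers are no pairing by the labels, and the Cpa3 change with sh2Ybx1, 2.16 with the block, then passed (adjusted p = 0.0148, over a range of 0.0148 to 0.316 among count fits). For Mitf over both hairpins the block gave 0.01, and for Cma1 over both hairpins 1.84 (adjusted p = 0.0512).

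On TPM and FPKM, limma called few genes of any kind. With sh1Ybx1 it called 129 (TPM + 1), 105 (TPM + 0.1), 186 (no filter) and 137 (FPKM + 1) genes. With sh2Ybx1 the counts in the same order were 66, 91, 82 and 55, and for both hairpins 178, 212, 266 and 135. Between the hairpins they were 26 with TPM + 1 and 25 with FPKM + 1. It called 0 mast cell genes for each hairpin and for both, except 1 (Gata2) for both with no filter. Mitf with sh1Ybx1 was -0.31, -0.34, -0.31 and -0.16 under these 4 settings. With sh2Ybx1 it was -0.85, -0.96, -0.85 and -0.65, none past the threshold (limma adjusted p = 0.342 to 0.415).

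With 1 library left out, the genes called ran from 156 to 5902 with sh1Ybx1, 40 to 5843 with sh2Ybx1, 1273 to 6795 for both and 0 to 1666 between the hairpins. The highest of each came without shNT replicate 4, and the lowest with 1 library left in a hairpin group. The mast cell genes called ran from 0 to 3 with sh1Ybx1, 0 to 4 with sh2Ybx1 and 2 to 4 for both. Without shNT replicate 4 they were 3, 4 and 4. Log2 fold changes ran from -0.11 to 0.09 for Mitf with sh1Ybx1, -0.19 to 0.00 for Mitf over both, 0.00 to 0.59 for Hpgds and -0.41 to 0.09 for Hdc between the hairpins. Cma1 over both hairpins passed in 1 of the 8 such fits, without shNT replicate 4, with an adjusted p of 0.0162 to 0.207 over them, and did not pass in DESeq2 (adjusted p = 0.0606). Depth limits Hpgds, Cma1 and Fcer1a most, each with 20 or fewer counts in any library.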

Other observations

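Of 19 cytokine and chemokine genes of mast cells, 9 were tested, of which 3 rose and 2 fell with sh1Ybx1, and 2 rose and 1 fell with sh2Ybx1. Over all tested genes, 19.2% passed in either direction with sh1Ybx1 and 19.9% with sh2Ybx1. Il6, which encodes interleukin-6, was at 81.8 and 67.9 CPM in sh1Ybx1, 78.9 and 68.9 CPM in sh2Ybx1, and 15.9 to 30.6 CPM in shNT. It rose by 1.61 on the log2 scale with sh1Ybx1 (SE 0.244, edgeR adjusted p = 0.00543) and 1.59 with sh2Ybx1 (SE 0.244, adjusted p = 0.00820). Ccl9, a macrophage chemokine, rose by 4.23 (adjusted p = 0.00111) and 2.38 (adjusted p = 0.0108) in the same comparisons. Ccl3, another chemokine, was at 8.85 and 10.3 CPM in sh1Ybx1, 0.371 and 0.284 CPM in sh2Ybx1, and 0.0530 to 0.196 CPM in shNT. It rose by 6.27 with sh1Ybx1 (SE 0.377, adjusted p = 0.00019), was at 1.42 with sh2Ybx1 (adjusted p = 0.0662), and differed between the hairpins by 4.86 (adjusted p = 0.00705). All shNT libraries of Ccl3 were below the filter's minimum of 0.381 CPM, so it could be tested only because it was higher in knockdown. Tgfb1, which encodes transforming growth factor beta 1, fell by 1.02 with sh1Ybx1 (adjusted p = 0.0208) and 0.86 with sh2Ybx1 (adjusted p = 0.0363).

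Of 16 erythroid and megakaryocyte markers 11 were tested, of which 2 fell and none rose with sh1Ybx1, and none passed with sh2Ybx1, against the same 19.2% and 19.9% of all tested genes. Of 9 eosinophil markers 3 were tested and none passed with either hairpin. Of 12 T and NK cell markers 2 were tested, and both fell with sh1Ybx1, where 7.96% of all tested genes fell, and did not pass with sh2Ybx1.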
